A study of Mus musculus with 10 samples.

Results

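In mouse definitive endoderm (DE), 5131 peaks of HA-tagged OTX2 lay at an end of a protein-coding gene and had no counterpart in epiblast stem cells (EpiSCs), the cells from which the DE was made. They were chosen by their peak calls, as intervals of the DE peak list that shared not a single base with the EpiSC peak list and whose centre lay within 1 kb of the start or the far end of a protein-coding gene, on chromosomes 1 to 19 and X. They made up 12.0% of the 42711 DE peaks (95% Wilson interval 11.7 to 12.3%) and 13.6% of the 37719 DE peaks without EpiSC overlap (13.3 to 14.0%). The EpiSC list was much shorter, with 6319 peaks, and when the DE list was limited to its 6319 widest peaks 347 of the 5131 were left. Absence from the EpiSC list, presence in the DE list and closeness to a gene end are therefore given by the choice and are not results.

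The profiles came from CUT&RUN, in which an antibody directs a nuclease to its target in permeabilised cells and the DNA released there is sequenced, with 500000 cells per sample. OTX2 was tagged in the line 7H OTX2-dTAG-EGFP on a BL6/129 hybrid background. Tagged EpiSCs (2 anti-HA and 3 IgG samples) were kept in N2B27 medium that held FGF2 at 12.5 ng/ml, Activin A at 20 ng/ml and NVP at 175 nM. Tagged DE (2 anti-HA samples and 1 IgG sample) was made in CDM medium over a 16 h step, with CHIR at 3 µM beside Activin A at 40 ng/ml, and a 24 h step, with LDN at 100 nM beside Activin A at 100 ng/ml, and sorted for live cells. Parental DE of line 5.8, which is not labelled as tagged (1 anti-HA and 1 IgG sample), was made in the same way. The tagged cells were a single line, so line and tag cannot be told apart from each other. Each state had a single list pooled over its 2 anti-HA samples, without peak scores or read depth. No value below has a replicate spread, no test between the states was possible, and intervals cover counting error only.

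OTX2 is a homeodomain transcription factor of the bicoid class, which recognises DNA with the core TAATCC, or GGATTA when read on the other strand. It is required for the head and the anterior part of the embryo and acts in the epiblast and in anterior endoderm. Definitive endoderm arises from the epiblast under Nodal and WNT signalling and forms the lining of the gut. Promoters of mouse genes fall broadly into CpG-rich ones, often with GC boxes bound by SP and KLF factors and CCAAT boxes bound by NFY, and CpG-poor ones.

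Promoters that new gene-end peaks overlapped, in whole or in part, are shown first. Each is the 250 bases before an annotated gene start, from RefSeq (GRCm38.p6, the assembly of mm10), written 5′ to 3′ in the direction of the gene. The first 5 belong to the widest new peaks that overlapped a promoter with a TAATCC or GGATTA match, and the match is in capitals.
Gpbp1 (chr13:111490128-111490377, minus strand): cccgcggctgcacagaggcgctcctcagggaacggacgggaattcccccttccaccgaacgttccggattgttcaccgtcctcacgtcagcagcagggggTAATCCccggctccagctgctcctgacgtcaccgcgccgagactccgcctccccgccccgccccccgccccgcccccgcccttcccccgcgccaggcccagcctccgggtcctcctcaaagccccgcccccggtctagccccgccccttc
Pon1 (chr6:5193947-5194196, minus strand): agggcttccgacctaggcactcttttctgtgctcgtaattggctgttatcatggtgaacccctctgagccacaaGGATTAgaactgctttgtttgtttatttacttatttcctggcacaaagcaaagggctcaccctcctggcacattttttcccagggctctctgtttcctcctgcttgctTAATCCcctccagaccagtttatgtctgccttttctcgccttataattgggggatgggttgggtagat
Zyx (chr6:42349578-42349827, plus strand): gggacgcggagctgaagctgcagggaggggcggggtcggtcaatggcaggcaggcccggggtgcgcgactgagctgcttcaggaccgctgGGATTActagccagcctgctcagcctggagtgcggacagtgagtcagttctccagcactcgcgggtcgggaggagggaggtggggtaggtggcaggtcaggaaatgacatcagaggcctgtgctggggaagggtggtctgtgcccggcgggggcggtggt
Mapk8 (chr14:33447159-33447408, minus strand): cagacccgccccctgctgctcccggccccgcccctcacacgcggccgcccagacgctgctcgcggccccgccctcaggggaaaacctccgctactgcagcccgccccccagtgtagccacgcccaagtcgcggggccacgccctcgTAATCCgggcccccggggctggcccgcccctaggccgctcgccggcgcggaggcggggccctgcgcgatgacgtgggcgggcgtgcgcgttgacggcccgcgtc
Rdh1 (chr10:127759513-127759762, plus strand): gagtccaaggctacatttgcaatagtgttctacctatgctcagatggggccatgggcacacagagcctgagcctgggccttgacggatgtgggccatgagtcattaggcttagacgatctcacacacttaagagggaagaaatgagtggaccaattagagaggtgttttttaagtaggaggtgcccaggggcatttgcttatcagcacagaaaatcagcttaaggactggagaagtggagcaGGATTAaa
The next 2 belong to the widest new peaks whose promoter held no such match, and capitals mark GC boxes (GGGCGG or CCGCCC) and CCAAT boxes (CCAAT or ATTGG).
Dnpep (chr1:75317638-75317887, minus strand): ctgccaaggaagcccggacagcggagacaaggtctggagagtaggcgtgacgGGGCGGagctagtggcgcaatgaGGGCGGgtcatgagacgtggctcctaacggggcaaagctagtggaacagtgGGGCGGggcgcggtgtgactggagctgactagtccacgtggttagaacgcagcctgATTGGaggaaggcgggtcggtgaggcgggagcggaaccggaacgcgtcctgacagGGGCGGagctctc
Vkorc1l1 (chr5:129941859-129942108, plus strand): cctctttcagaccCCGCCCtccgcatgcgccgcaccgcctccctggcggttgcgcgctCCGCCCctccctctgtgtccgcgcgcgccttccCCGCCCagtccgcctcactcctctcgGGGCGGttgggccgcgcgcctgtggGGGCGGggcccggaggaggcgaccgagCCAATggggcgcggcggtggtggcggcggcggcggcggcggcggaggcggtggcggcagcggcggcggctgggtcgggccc
The last 3 belong to genes of the endoderm and signalling lists described further on, and were chosen after their values had been seen. Capitals mark GC and CCAAT boxes in Gsc and Lhx1 and the OTX2 match in Sfrp2, the single listed gene of 16 with a promoter under a new peak that had one.
Gsc (chr12:104473237-104473486, minus strand): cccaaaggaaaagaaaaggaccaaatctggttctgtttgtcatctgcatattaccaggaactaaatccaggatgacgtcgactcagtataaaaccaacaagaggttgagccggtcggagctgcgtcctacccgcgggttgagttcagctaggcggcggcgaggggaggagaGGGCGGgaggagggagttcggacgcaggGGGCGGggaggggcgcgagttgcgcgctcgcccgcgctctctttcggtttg
Lhx1 (chr11:84525535-84525784, minus strand): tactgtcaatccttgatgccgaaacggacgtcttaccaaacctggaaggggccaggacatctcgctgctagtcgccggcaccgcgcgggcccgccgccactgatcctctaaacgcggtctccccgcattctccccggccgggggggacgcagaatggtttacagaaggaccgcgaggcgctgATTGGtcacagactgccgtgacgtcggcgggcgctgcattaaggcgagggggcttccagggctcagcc
Sfrp2 (chr3:83766071-83766320, plus strand): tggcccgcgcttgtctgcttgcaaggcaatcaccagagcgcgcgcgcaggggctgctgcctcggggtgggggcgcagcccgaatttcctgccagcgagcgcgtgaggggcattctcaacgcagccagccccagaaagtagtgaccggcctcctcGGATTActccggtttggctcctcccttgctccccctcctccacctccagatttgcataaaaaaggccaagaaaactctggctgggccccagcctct

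In 4 of the 5 promoters with a match, the match lay inside the new peak. In Pon1, a serum paraoxonase gene of the liver, the 366 bp peak (chr6:5193831-5194196) held both matches, the first at 176 bases before the start. In Zyx, which encodes the focal adhesion protein zyxin, the match began 160 bases before the start inside a 339 bp peak, and in Mapk8, which encodes the stress kinase JNK1, it began 104 bases before the start inside a 338 bp peak. In Rdh1, a retinol dehydrogenase gene, it began 8 bases before the start inside a 303 bp peak. In Gpbp1 the match began 150 bases before the start, outside the 399 bp peak (chr13:111489840-111490238), which spanned the start itself. The promoter of Dnpep, an aspartyl aminopeptidase gene, carried 4 GC boxes and 1 CCAAT box and all lay inside a 623 bp peak. That of Vkorc1l1 carried 5 GC boxes and 1 CCAAT box and was overlapped in part by a 611 bp peak, with 3 of the GC boxes inside the peak and the CCAAT box outside. In Gsc the capitals mark 2 GC boxes, both outside the peak, and in Lhx1 1 CCAAT box, inside it.

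Most of the new gene-end peaks lay at gene starts. The strand of the gene was known for 4140 of the 5131 peaks (80.7%), and for 3665 of these the closest end was the start (88.5%, 87.5 to 89.5%). The other 475 (11.5%, 10.5 to 12.5%) were at the far end, where transcription stops. Among DE peaks at gene ends that overlapped an EpiSC peak (2011 peaks, called shared peaks here), the start share was higher, at 95.8% of 1676 (94.7 to 96.6%). Among the 149 EpiSC peaks at gene ends without a DE overlap it was 67.2% of 119 (58.4 to 75%).

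New start peaks were centred just before the start of the gene. The median position of the peak centre was 36 bp upstream, with quartiles at 112 bp upstream and 57 bp downstream. The centre lay within 100 bp of the start in 1810 of 3665 peaks (49.4%, 47.8 to 51.0%) and within 250 bp in 2558 (69.8%, 68.3 to 71.3%). It was upstream of the start in 64.0% (62.4 to 65.5%). Shared start peaks sat somewhat farther upstream, at a median of 71 bp before the start with 75.3% upstream (73.1 to 77.3%), while the share within 100 bp was 49.3% (46.9 to 51.8%). Of the new start peaks, 397 (10.8%, 9.87 to 11.9%) had starts of protein-coding genes on both strands within 1 kb, compared with 14.3% of shared start peaks (12.7 to 16.1%).

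**Figure D1:**
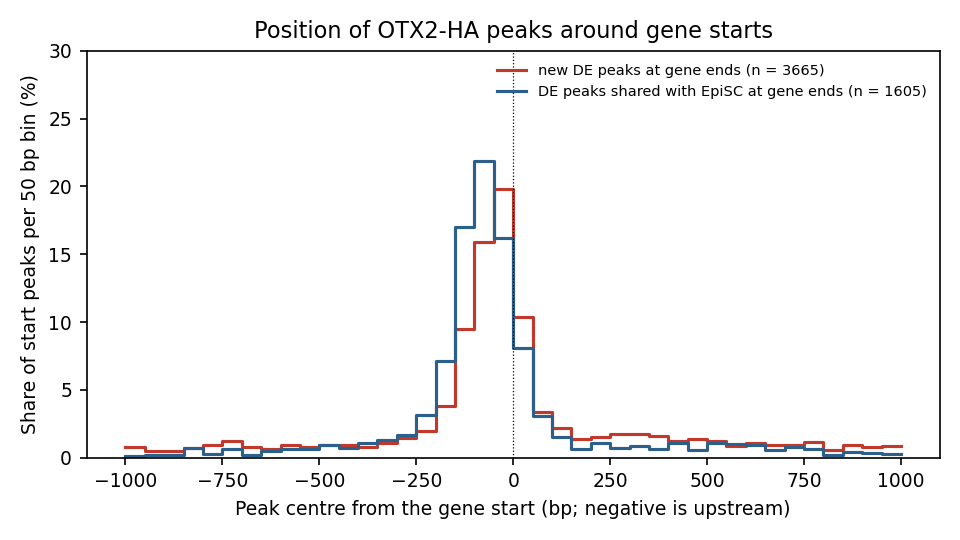
Share of start peaks in 50 bp bins of distance between peak centre and gene start (x axis in bp, negative upstream), for 3665 new and 1605 shared DE peaks. Both lines are highest within 150 bp before the start, and the new peaks reach their maximum in the bin that ends at the start itself.

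Peaks at far ends were spread more evenly over the window. Their median distance from the far end was 475 bp, against 102 bp for start peaks, and 179 of 475 (37.7%, 33.4 to 42.1%) were centred inside the gene. Of the 475, 11 lay within 250 bp of an annotated start of any gene, the same gene included (2.32%, 1.30 to 4.10%). Only starts with a RefSeq promoter were searched, so this share is a lower limit. The authors' deposited table named the same gene as the closest end in 46.7% of far-end peaks (42.3 to 51.2%) and in 86.4% of start peaks (85.3 to 87.5%). The 2 widest far-end peaks were 673 bp at Tmem184a (chr5:139803765-139804437) and 656 bp between Dip2b, whose far end was closest, and Atf1, a CREB-family factor gene named as nearest in the authors' deposited table (chr15:100219858-100220513). The fifth widest was 436 bp at Neurog1, a neurogenic bHLH factor gene (chr13:56249884-56250319).

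New gene-end peaks were narrow. Their median width was 125 bp, with quartiles at 90 and 175 bp and a range of 62 to 783 bp. New DE peaks away from gene ends (32586 peaks) had a similar median of 130 bp (quartiles 90 and 196 bp), while shared peaks at gene ends had a median of 228 bp (169 and 304 bp). A wider peak overlaps the other list more readily, so width is not independent of the choice. Of the new gene-end peaks, 41.7% (40.4 to 43.1%) were wider than the median DE peak, compared with 85.5% of shared ones (83.9 to 87.0%).

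**Figure D2:**
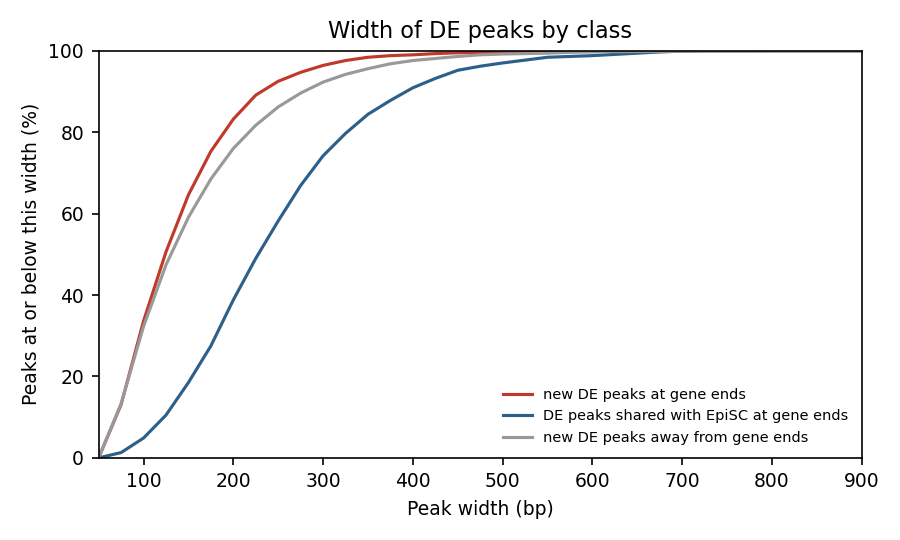
Cumulative share of DE peaks (y axis, %) at or below each width (x axis, bp) for 5131 new peaks at gene ends, 2011 shared peaks at gene ends and 32586 new peaks away from gene ends. The curves of both new classes run close together up to about their median, and the shared class lies to the right with a median of 228 bp.

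The widest new peak was 783 bp, 735 bp upstream of the start of Syne3, which encodes the nuclear envelope protein nesprin-3 (chr12:105010931-105011713). Syne3 had 3 further new peaks at the same start, of 139, 86 and 148 bp, and no EpiSC peak was assigned to it beside its 9 DE peaks. Edn1, which encodes the secreted peptide endothelin-1, also had 4. Of these, 106 and 186 bp peaks lay at its start (the second at 6.5 bp from it, chr13:42301390-42301575) and 98 and 105 bp peaks at its far end. Of the 35 genes with 3 new peaks, the first in alphabetical order were AW146154, Ankrd10 and Apool, a mitochondrial MICOS subunit gene, and all their peaks were at the start. A single new gene-end peak was the rule, as 4180 of 4636 genes had 1, 419 had 2, 35 had 3 and 2 had 4. Per 100 protein-coding genes, chromosome 8 held the most new gene-end peaks (27.8) and chromosome X the fewest (13.8).

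At the 1 kb limit, the last peaks taken in were at Araf (999.5 bp), Phldb3 (999 bp), Crxos (998 bp), Ubqln1 (998 bp) and Creb3l4 (997.5 bp). The first ones left out were nearest to the ends of Rgs9bp (1001.5 bp), Aldh18a1 (1002 bp), Hdac2 (1002 bp), Eya1 (1002.5 bp) and Mnx1 (1005 bp).

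Promoters under new peaks were CpG-rich. RefSeq promoter windows of 300 bp (250 before to 50 after a start) were given for 17274 of 21631 protein-coding genes, 21045 windows in all, and 2980 of them overlapped a new gene-end peak. These held 2635 of the 5131 peaks (51.4%, 50 to 52.7%), so composition and motifs below describe those peaks and not the rest. Their median GC content was 62.0% (quartiles 56.3 and 67.0%), compared with quartiles of 55.7 and 64.4% in 1652 windows under shared peaks and a median of 54.3% in 15731 windows without any HA peak. The observed number of CpG dinucleotides over that expected from base composition was at least 0.6 in 80.1% of windows under new peaks (78.6 to 81.5%), in 80.4% under shared peaks (78.4 to 82.2%) and in 38.2% without an HA peak (37.4 to 39.0%). Over all windows this share was 48.1%.

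The OTX2 motif occurred about as often under new peaks as over all promoters. TAATCC, on either strand, occurred in 178 of the 2980 windows under new peaks (5.97%, 5.18 to 6.88%), in 6.39% of all 21045 windows (6.06 to 6.72%) and in 5.98% of windows without an HA peak (5.62 to 6.36%). Under shared peaks it occurred in 156 of 1652 windows (9.44%, 8.13 to 10.9%). The 5-base core TAATC, which is contained in TAATCC, was found in 15.3% of windows under new peaks (14.1 to 16.7%), 20.2% under shared peaks (18.4 to 22.2%) and 19.5% of all windows.

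Base composition moved with these shares, and among CpG-rich promoters alone the order was different. There TAATCC occurred in 4.90% of 2386 windows under new peaks (4.11 to 5.84%), between 2.71% of 6010 windows without an HA peak (2.33 to 3.15%) and 9.04% of 1328 windows under shared peaks (7.61 to 10.7%). Among CpG-poor promoters it occurred in 10.3% of 594 windows under new peaks (8.08 to 13.0%), 8% of those without an HA peak (7.48 to 8.56%) and 11.1% under shared peaks (8.13 to 15.0%). Where a window under a new peak held a match, 119 of 196 matches (60.7%, 53.7 to 67.3%) lay wholly inside the peak, while new peaks covered 43.8% of the bases of these windows. For shared peaks 136 of 159 matches (85.5%, 79.2 to 90.2%) lay inside, with 66.4% of bases covered. In the central 100 bp of the peaks, where a window held them, TAATCC occurred in 62 of 2182 new peaks (2.84%, 2.22 to 3.63%) and 53 of 1138 shared peaks (4.66%, 3.58 to 6.04%), against 2.12% of all 100 bp promoter segments (2.01 to 2.23%). These segments came from all promoters and were not matched to the peaks for CpG content or position.

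GC boxes and CCAAT boxes were the common elements under new peaks. GGGCGG, on either strand, occurred in 71.7% of windows under new peaks (70.1 to 73.3%), 74.6% under shared peaks (72.5 to 76.7%) and 46.7% of all windows. Among CpG-rich promoters the shares were nearer, at 76.7% (75 to 78.3%) under new peaks and 72.5% (71.4 to 73.6%) without an HA peak. CCAAT, on either strand, occurred in 48.0% of windows under new peaks (46.2 to 49.8%), 64.9% under shared peaks (62.6 to 67.2%) and 38.5% of all windows. Within CpG-rich promoters CCAAT remained apart, at 47.9% (45.9 to 50%) under new peaks, 65.1% (62.5 to 67.6%) under shared peaks and 25.1% (24.0 to 26.2%) without an HA peak. In the central 100 bp of new peaks CCAAT was present in 35.1% (33.1 to 37.1%) and GGGCGG in 48.5% (46.4 to 50.6%). For shared peaks the values were 48.6% (45.7 to 51.5%) and 44.7% (41.9 to 47.6%). Over all 100 bp promoter segments they were 15.8% and 22.7%. The segments were not matched to the peaks for CpG content or position, so this gap cannot be told apart from base composition.

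Motifs of other endoderm and pluripotency factors were rare. The GATA motif AGATAA occurred in 5.67% of windows under new peaks, the forkhead motif TGTTTAC in 2.48%, the T-box motif TCACACC in 2.85%, the SOX motif AACAATG in 1.61% and the POU motif ATGCAAAT in 1.54%. Over all windows the corresponding shares were 9.68%, 3.03%, 3.67%, 3.22% and 1.68%. Among CpG-rich promoters the shares under new peaks were near those without an HA peak for GATA (4.36% and 4.13%), forkhead (2.39% and 2.21%) and SOX (1.34% and 1.36%). The T-box share was 2.22% (1.7 to 2.89%) against 2.95% (2.55 to 3.4%). The POU share was higher, at 1.47% (1.06 to 2.03%) against 0.815% (0.617 to 1.08%), with intervals that barely overlapped. Under shared peaks the POU share was 1.81% (1.22 to 2.68%). These differences were not tested, and overlapping intervals do not show equal shares. A match of letters describes the window and is not evidence of binding.

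**Figure D3:**
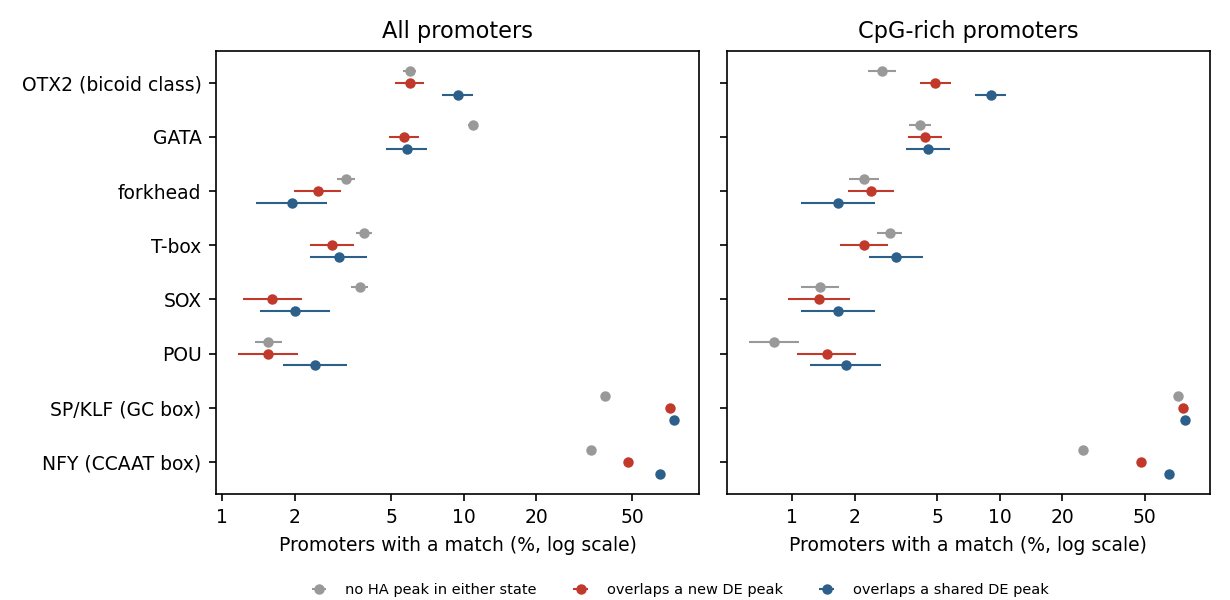
Share of 300 bp promoter windows (x axis, %, log scale) with a match to the motif of each factor family (rows), for windows without an HA peak, under a new DE peak or under a shared DE peak, over all promoters (left) and CpG-rich ones (right); points are shares and bars 95% Wilson intervals. The OTX2 share under new peaks is at the level without an HA peak on the left (5.97% and 5.98%) and between the other classes on the right (4.90%).

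Within the new gene-end peaks, these features varied with width. The peaks were divided into 4 groups by width, 62 to 90, 91 to 125, 126 to 175 and 176 to 783 bp. The share at gene starts was 86.3% in the narrowest group (84.0 to 88.2%) and 91.0% in the widest (89.1 to 92.6%). CCAAT boxes in the overlapped promoter went from 40.6% (36.8 to 44.5%) to 57.8% (54.6 to 61.0%), and GC boxes from 69.2% (65.4 to 72.7%) to 75.3% (72.4 to 78.0%). The OTX2 motif was at 7.14% (5.36 to 9.45%) in the narrowest and 6.76% (5.29 to 8.61%) in the widest group, with overlapping intervals.

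**Figure D4:**
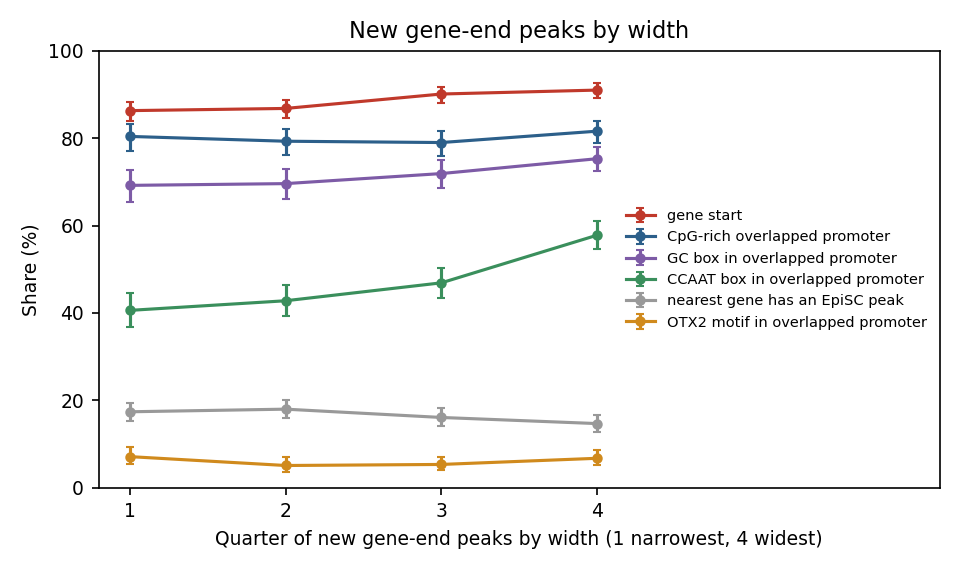
Shares (y axis, %) of new gene-end peaks or of the promoter windows they overlap, in 4 groups of peaks from narrowest (1) to widest (4); points are shares and bars 95% Wilson intervals. CCAAT boxes go from 40.6% to 57.8% and the other lines change by less.

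The 5131 peaks were assigned to 4636 genes in the authors' deposited table, of which 743 (16.0%, 15.0 to 17.1%) were also named as nearest gene of at least 1 EpiSC peak. With an EpiSC peak counted wherever its centre lay within 10 kb of the gene, over the 4156 genes whose symbol is a protein-coding one in the gene table, the share was 25% (23.7 to 26.4%), and within 50 kb it was 47% (45.5 to 48.5%). Over all 21631 protein-coding genes these shares were 23.9% (23.3 to 24.5%) and 41.3% (40.6 to 41.9%). Among the 4299 of the 4636 genes that matched a protein-coding gene by symbol or synonym, the share by nearest gene was 16.6% (15.5 to 17.7%). For all 21631 protein-coding genes, with or without a DE peak, it was close, at 16.2% (15.7 to 16.7%). It was 29.1% among the 11455 protein-coding genes named in the DE table (28.2 to 29.9%), which include the genes of shared peaks, a class that the choice of peaks excludes (96.6% of the genes with a shared gene-end peak had an EpiSC peak), and 24.2% (23.1 to 25.3%) among 5935 protein-coding genes whose new DE peaks were all away from gene ends. An EpiSC peak at a gene end was present for 311 of the 4636 genes (6.71%, 6.02 to 7.46%). Of the 4636 genes, 281 also had a shared gene-end peak, and leaving these out, 465 of 4355 genes (10.7%, 9.79 to 11.6%) had an EpiSC peak. At 249 of the 5131 peaks (4.85%, 4.30 to 5.48%) the same gene end carried a shared DE peak.

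The 743 genes mostly had a single EpiSC peak. This was so for 568 of them, while 140 had 2, 28 had 3 and 7 had 4 or more. Jarid2, a component of Polycomb repressive complex 2, had the most with 7 EpiSC and 19 DE peaks, and its new 88 bp start peak (chr13:44731247-44731334) lay 434 bp from the closest EpiSC peak. Sipa1l2 had 5 EpiSC and 11 DE peaks, yet its new 66 bp peak at the start was 95979 bp from the closest EpiSC peak. Cachd1 and the non-coding Gm25464 had 4 EpiSC peaks each. By distance, 226 new gene-end peaks (4.4%, 3.88 to 5%) had an EpiSC peak within 500 bp and 2034 (39.6%, 38.3 to 41.0%) within 50 kb, and the median gap was 76095 bp. For new peaks away from gene ends these shares were 1.12% and 28.1%, with a median gap of 139034 bp.

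Genes known from endoderm, axis and epiblast biology were examined by role. A new gene-end peak was assigned to 4299 of the 21631 protein-coding genes, 19.9%, and since the choice of peaks fixes this contrast, the counts below are descriptions. Of 17 endoderm transcription factor genes, 7 had a new gene-end peak, and 2 of these, Eomes and Gsc, also had an EpiSC peak. Eomes, a T-box factor needed to specify endoderm, had 3 new gene-end peaks: 212 bp at 81.5 bp before the start (chr9:118477999-118478210), and 146 and 213 bp at its far end, the last 224 bp from an EpiSC peak. It also had a shared peak at a gene end, and 7 DE and 2 EpiSC peaks in all.

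The other endoderm factors with a new gene-end peak had no EpiSC peak of their own. Gata6, a zinc finger factor of endoderm, had 326 bp as its single DE peak, 71.5 bp from a gene end. Lhx1, a LIM homeodomain factor of the node and anterior endoderm, had a 299 bp peak 100 bp before its start (chr11:84525485-84525783), and the antisense gene Lhx1os was named for a second one of 183 bp, 581 bp before the Lhx1 start. Foxa1 and Foxa2, pioneer forkhead factors, each had 1 new gene-end peak, of 126 bp and 137 bp, 525.5 bp before the start and 580 bp after it. Mixl1, a homeodomain factor of the primitive streak, had 245 bp as its single DE peak.

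Of 12 anterior and head-organiser factor genes, 4 had a new gene-end peak: Hesx1, Irx3 and, also on the endoderm list, Gsc and Lhx1. Gsc, the organiser homeobox gene goosecoid, had a 437 bp peak centred 321 bp before its start (chr12:104473339-104473775), with the closest EpiSC peak 6060 bp away. Hesx1, a homeobox repressor of the forebrain and anterior endoderm, had a 122 bp peak 29.5 bp before the start (chr14:26994329-26994450). Irx3, an Iroquois homeobox gene, had peaks of 64 and 229 bp around its start, and its antisense gene Irx3os was named for another of 88 bp. The authors' deposited table marked 4 of the 12 genes as down, and these were the 4 with a new gene-end peak. Over all protein-coding genes of the authors' deposited table, 2.85% were marked down, and 111 of these 326 (34%, 29.1 to 39.4%) had a new gene-end peak. Among the 361 marked up in the authors' deposited table, one was present at 155 (42.9%, 37.9 to 48.1%), and among its 11455 protein-coding genes, marked or not, at 4299 (37.5%, 36.6 to 38.4%). Of genes marked down on the other lists, the authors' deposited table holds 5 endoderm genes. Of these, 2 had a new gene-end peak, and they were Gsc and Lhx1, already counted above. The authors' deposited table also holds 4 WNT genes marked down (1 with a new gene-end peak), 2 pluripotency genes (1), 2 primed epiblast genes (1) and 1 visceral endoderm gene (0). Of genes marked up, the authors' deposited table holds 2 endoderm genes (2), 3 WNT genes (3), 3 primed epiblast genes (2), 1 mesoderm gene (1) and 2 visceral endoderm genes (0).

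Of 23 Nodal pathway genes, 7 had a new gene-end peak and 3 of these had an EpiSC peak. Cer1, a secreted antagonist of Nodal, BMP and WNT, had new peaks of 308 and 329 bp at 124.5 and 587 bp before the start (chr4:82885122-82885429 and chr4:82885574-82885902), with an EpiSC peak 377 bp from the second. Lefty1, a Nodal inhibitor, had an 82 bp peak 166.5 bp from a gene end and 816 bp from an EpiSC peak. Cfc1, the Nodal co-receptor Cryptic, had peaks of 83 and 97 bp at 261 and 40 bp before its start. Cfc1 also had 1 shared peak at a gene end, and the closest EpiSC peak was 1374 bp from the second new peak. Smad2, the signal transducer, had peaks of 237 and 67 bp, and Drap1, a co-repressor that acts on FOXH1, had 2 of 103 and 143 bp, the second at the start of its neighbour AI837181. Gdf3, a Nodal-related ligand, and Acvr2b, a type II activin receptor, each had 1, of 223 and 73 bp. The authors' deposited table marked none of the 23 genes as up or down.

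Of 26 WNT antagonist and feedback genes, 9 had a new gene-end peak, 2 of them (Dkk1 and Frzb) with an EpiSC peak. Dkk1, a secreted inhibitor of the WNT co-receptors, had peaks of 160 bp at 132.5 bp before the start and 267 bp at 994 bp before it (chr19:30549549-30549708 and chr19:30550357-30550623). The decoy receptor genes Frzb, Sfrp1 and Sfrp2 each had 1, of 100, 80 and 71 bp, and the EpiSC peak closest to that of Frzb was 820 bp away. Znrf3, a ubiquitin ligase that removes WNT receptors, had 105 and 132 bp peaks. Tle1, a Groucho co-repressor, had a 252 bp peak 100.5 bp before its start, and Nkd1, an intracellular feedback inhibitor, a 230 bp peak 180.5 bp before it. Wif1 and Apcdd1 had 1 each. For Tle3, 2 new peaks lay before its start, 176 bp the wider, but the authors' deposited table named Gm10655 for both.

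Among 19 pluripotency genes, 6 had a new gene-end peak: Klf2, Klf4, Klf5, Tbx3, Dppa3 and Lin28a. Tbx3 had 190 and 144 bp peaks 174.5 and 423.5 bp from a gene end, and Klf5 a 202 bp peak. The peak of Klf2 was 158 bp wide and that of Dppa3 187 bp. Klf2 and Lin28a had 1 EpiSC peak each, that of Lin28a 194 bp from the new peak. Among primed epiblast genes, Fgf8, Fgf5 and Cdh2 had new gene-end peaks. Fgf8, a ligand of the streak and the anterior organisers, had 149 and 170 bp peaks on either side of the gene, with 9 DE and 2 EpiSC peaks in all, and Fgf5, an epiblast ligand, had a 119 bp peak 31 bp after its start and 2 EpiSC peaks.

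Of 19 streak and mesoderm genes 7 had a new gene-end peak (Mesp2, Snai1, Snai2, Hand1, Pdgfra, Foxc1 and Foxc2), and none of the 19 had an EpiSC peak (interval 0 to 16.8%, which includes the 16.2% of all protein-coding genes). Pdgfra, a receptor of mesoderm cells, had 112 and 205 bp peaks 33.5 and 427 bp after its start. Snai1, a repressor of epithelial genes, had a 129 bp peak 66 bp before the start (chr2:167538065-167538193), and Mesp2 an 85 bp peak 3 bp before it. Of 11 visceral endoderm genes, Apoa1 alone had a new gene-end peak, of 95 bp at its far end, and of 10 neural genes, Neurog1 and Neurog2 had one.

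**Figure D5:**
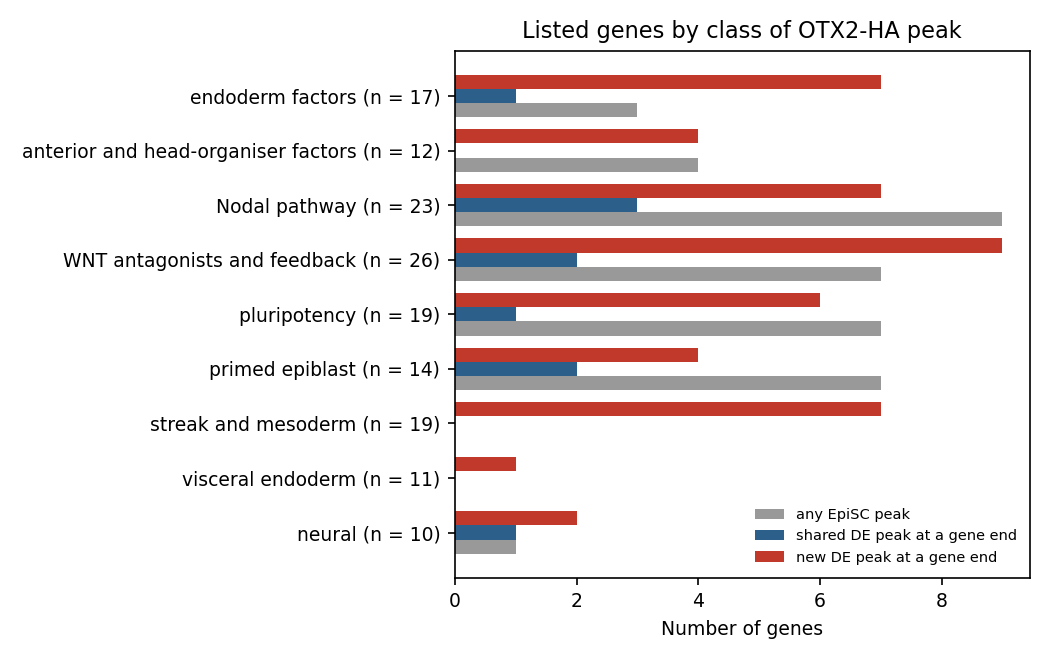
Number of genes (x axis) in each of 9 role lists (rows, list size as n) with a new DE peak at a gene end, a shared DE peak at a gene end or any EpiSC peak, by nearest gene. The streak and mesoderm list has 7 genes with a new gene-end peak and none in the other classes.

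Larger families were counted by symbol in the same way, beside the 19.9% of all protein-coding genes. Ribosomal protein genes had a new gene-end peak in 35 of 83 (42.2%), kinesin genes in 15 of 38 (39.5%), RAB GTPase genes in 22 of 69 (31.9%) and ubiquitin enzyme genes in 28 of 92 (30.4%). Cyclin genes had one in 8 of 29, proteasome genes in 12 of 51, initiation factor genes in 13 of 55, mitochondrial ribosomal protein genes in 18 of 78 and zinc finger genes of the Zfp series in 91 of 397. Solute carriers were close to the share of all genes (69 of 375, 18.4%), and forkhead genes had one in 11 of 44. The shares were 10.4% for histone genes (7 of 67), 10.3% for HOX genes (4 of 39) and 5.26% for SOX genes (1 of 19). Intervals were not computed for the family shares, and the HOX and SOX counts are too small to show a lower share. Histone genes had a shared gene-end peak in 28 of 67, beside 8.48% of all protein-coding genes.

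The authors' deposited table also marks nearest genes as DEGdown or DEGup, without giving the contrast behind the marks. These marks were not used to choose the peaks. Among the 4299 protein-coding genes with a new gene-end peak, the authors' deposited table marked 155 as up (3.61%, 3.09 to 4.21%) and 111 as down (2.58%, 2.15 to 3.10%). Among all 11455 protein-coding genes in it, 3.15% were marked up and 2.85% down, so the share of either mark was close to this background. Over all 19566 genes of the authors' deposited table, coding or not, 1.85% were marked up and 1.71% down. For the 5935 protein-coding genes with new DE peaks away from gene ends alone, the shares in the authors' deposited table were 3.15% up (2.74 to 3.63%) and 3.44% down (3.00 to 3.93%). For the 1834 with a shared gene-end peak the authors' deposited table gave 2.45% up (1.84 to 3.27%) and 2.24% down (1.65 to 3.02%).

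By the marks of the authors' deposited table, the median width was 133 bp for 175 new peaks at genes marked up (quartiles 98 and 191 bp), 144 bp for 139 at genes marked down (106 and 194 bp) and 124 bp for the 4817 others (89 and 174 bp). The quartile ranges overlapped. In the narrowest width group 2.72% of peaks were at genes marked up (1.97 to 3.75%) and 1.74% at genes marked down (1.16 to 2.60%), and in the widest group 4.18% (3.21 to 5.43%) and 3.63% (2.73 to 4.81%). The widest at genes that the authors' deposited table marks as up were Igfbp2, an insulin-like growth factor binding protein gene (404 bp, chr1:72823602-72824005), Fkbp11 (348 bp, at the far end of Ccdc65), Man1c1 (338 bp) and Cdca7 (335 bp). Those marked down were Tmem184a, Fzd5, a WNT receptor gene (513 bp, 462 bp before the start, chr1:64737956-64738468), Vwa5a (507 bp) and Acaa2, a mitochondrial thiolase gene (500 bp). Of the listed genes with a new gene-end peak, the authors' deposited table marks Eomes, Mixl1, Frzb, Sfrp1, Znrf3, Fgf8, Cdh2 and Pdgfra as up and Gsc, Lhx1, Hesx1, Irx3, Dkk1, Klf5 and Fgf5 as down.

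The control lists were short, with 202, 149 and 200 peaks for the EpiSC IgG replicates and 14 for parental anti-HA. Of the 5131 new gene-end peaks, 1 overlapped a peak of the EpiSC IgG lists (0.0195%, 0.00344 to 0.110%) and none a peak of the parental anti-HA list. With both kinds of control list, the overlap for shared gene-end peaks was 1 of 2011 (0.0497%, 0.00878 to 0.281%), and for the whole EpiSC HA list 50 of 6319 (0.791%, 0.601 to 1.04%). Because the new peaks were chosen to lie outside EpiSC HA peaks, their overlap with EpiSC IgG peaks is not independent of the choice. IgG peak lists of DE cells were not analysed here. RNA was not among the files used, so the labelled cell types were not checked against marker expression.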

How the data were processed

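Peak positions were used as deposited, in 1 list per cell state pooled over 2 anti-HA samples and merged over 50 bp per the file names. The submitters' processing notes name Bowtie2 2.3.5.1, SAMtools 1.14, Picard 2.26.10, bedtools 2.30, MACS2 2.2.6 and the build mm10, without roles. The label of EpiSC anti-HA replicate 2 names the DE list, which was read as a slip. The intervals of the authors' tables equal the lists row by row.

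Gene ends were those of 21631 protein-coding genes of RefSeq (GRCm38.p6), and strand came from its promoter table. Centre distance, overlap of at least 1 bp and motif matches on both strands were computed in Python 3.11.15 with numpy 2.4.6, pandas 2.3.3 and scipy 1.17.1, and interval functions were tested on simulated data. Intervals are 95% Wilson. Of the symbols in the DE table, 15741 of 19566 matched RefSeq. Histone symbols were matched under their newer names.

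The members and lists were chosen with earlier results of these data known. Named genes are the 5 widest peaks, the 5 genes with most new gene-end peaks (ties in alphabetical order), up to 4 genes per list by number of peaks and width, the 4 widest per mark, the 4 with most EpiSC peaks and 5 on each side of the distance limit. Other listed genes were named after their values were seen.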

Additional observations from a re-analysis of the deposited data

How the results depend on the processing

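No paired analysis was possible because each state has a single list made from its anti-HA samples together, and for the same reason no anti-HA replicate could be left out. Of 49 values under other settings, 30 stayed within the interval of the main value (or, for counts, within 1.5 times) and 19 moved. The 5131 peaks became 347 when the DE list was limited to its widest peaks, as many as the EpiSC list has. With that limit, 84.7% were at starts, the median width was 303 bp by construction, 14.9% of genes had an EpiSC peak and 8.07% of peaks had a marked gene, against 88.5%, 125 bp, 16.0% and 6.12%. With both lists at 78 bp or wider the median width was 137 bp. The share at starts was 92.3% within 500 bp of an end, 83.2% within 2 kb and 83.3% with all genes of the gene table. The share of genes with an EpiSC peak was 14.5%, 17.6% and 17.2% in these settings, 13.0% where no EpiSC peak lay within 500 bp, 25% for EpiSC peaks within 10 kb of the gene and 47.0% within 50 kb (over 4156 genes). The OTX2 motif share of 5.97% was 3.76% when followed by C or T, 15.3% for the 5-base core, and 4.90% in CpG-rich promoters, a choice made after seeing the data. The cause of these shifts was not tested. Leaving out each IgG replicate left 0 to 1 new gene-end peaks over an IgG or parental peak, the 0 without replicate 1. Read depth is not in the lists, so a longer DE list from deeper sequencing and more binding in DE cannot be told apart.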
